A study of Mus musculus with 4 samples.

Results

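Nos2+ macrophages were taken from single-cell libraries of mouse ascites by a rule on each barcode. It asked for 1000 to 4800 detected genes and at most 15% mitochondrial UMIs (unique molecular identifiers, each standing for 1 captured RNA molecule). The UMIs of the macrophage genes C1qa, C1qb, C1qc, Csf1r and Adgre1, summed over these genes, had to reach at least 3. The cells also had no UMI of the B cell gene Cd79a or the T cell gene Cd3e, and at least 2 UMIs of Nos2. They were thus chosen by their UMI counts of these genes. The rule found 2647 such cells among 15411 macrophages, out of 37844 barcodes with 1000 to 4800 genes and 133849 barcodes in all. All 2647 came from the siFXR1-LNA libraries, 1284 from replicate 1 and 1363 from replicate 2, and both siCont-LNA libraries held 0. The remaining 12764 macrophages, with 0 or 1 Nos2 UMI, are called other macrophages, and 2718 and 3596 of them came from siFXR1-LNA replicates 1 and 2. Nos2 chose the cells, so its values and those of the 7 other genes of the rule are described without a test, as are Ptges, Ms4a4a, Saa3, Arg1 and Mmp14, which were given as markers of these cells with results of these data known.

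The ascites came from female FVB mice 6 weeks after injection of Br-Luc cells, a mouse ovarian cancer line that lacks p53 and Brca1 and carries myc and an activated Akt. Mice of both groups received an siRNA with locked nucleic acid bases, carried by jetPEI, into the peritoneum 2 times a week for 5 weeks, a control siRNA in the group siCont-LNA and one directed at Fxr1 in the group siFXR1-LNA. There were 2 libraries per group, each of the pooled ascites of 3 mice. The replicates are thus pools, and the spread between them is a spread between pools. By the study's methods, 1 siFXR1-LNA replicate of lower read and cell number was set aside. Both are used here, and CPM values are given by library. Log2 fold changes and list medians come from fits to both siFXR1-LNA libraries together.

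Nos2, at chromosome 11 from 78920787 to 78960254 on GRCm38, encodes the inducible nitric oxide synthase, which makes nitric oxide from arginine. In macrophages it is induced by bacterial products and interferon-gamma, and by textbook account it competes for arginine with Arg1, the arginase linked to IL-4 driven, alternative activation. The peritoneal cavity holds resident macrophages that express Gata6 and Alox15, and it takes up monocyte-derived cells during inflammation and tumor growth.

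The 4 libraries held 78179267 to 113606837 UMIs. Hemoglobin genes took 29.5% and 41.1% of them in siCont-LNA replicates 1 and 2 and 10.0% and 9.11% in the siFXR1-LNA replicates. Fxr1, the target of the siRNA, had 65.9 and 60.7 CPM (counts per 1000000 summed UMIs) in the macrophages of siCont-LNA replicates 1 and 2, 81.7 and 78.3 CPM in the other macrophages of siFXR1-LNA replicates 1 and 2, and 71.4 and 62.2 CPM in their Nos2+ macrophages. The target was therefore not lower in macrophages of the libraries with the siFXR1-LNA label, and groups are named by their labels only. In epithelial cells, whose Fxr1 was not examined here, the paper reports a lower Fxr1 level after siFXR1-LNA. Libraries shared between 598 and 2882 cell barcodes, 3.45% to 7.88% of the smaller library of each pair, and 1 barcode belonged to a Nos2+ macrophage in both siFXR1-LNA libraries.

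In siFXR1-LNA replicate 1, 1284 of 4002 macrophages were Nos2+, which is 32.1% (exact 95% binomial interval 30.6% to 33.6%). In replicate 2 the share was 1363 of 4959, or 27.5% (26.2% to 28.8%). In siCont-LNA replicates 1 and 2, 0 of 4524 and 0 of 1926 macrophages passed, with upper ends of the exact 95% interval at 0.0815% and 0.191%. The mean share was 29.8% ± 3.25 (SD, n = 2) for siFXR1-LNA and 0% for siCont-LNA, and the groups did not overlap. Nos2 chose the cells, so these shares are a description with no test. Intervals and limits cover counting error only.

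The cells that passed were deeper than those that did not. Nos2+ cells of replicates 1 and 2 had medians of 7596 and 10835 UMIs, against 4422 and 5381 UMIs in the other macrophages, and siCont-LNA macrophages had medians of 5087 and 8452.5 UMIs. When each macrophage was reduced at random to 4000 UMIs, without 1328 and 1493 shallower siFXR1-LNA cells and 1418 and 194 siCont-LNA cells, 30.8% and 22.1% of the siFXR1-LNA cells kept at least 2 Nos2 UMIs and 0 of 3106 and 0 of 1732 siCont-LNA cells did. At 1500 UMIs these shares were 10.0% and 7.50%, again with 0 in both siCont-LNA libraries. The share was thus lower at lower depth, and the groups did not overlap at either depth.

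Just inside the threshold, 274 and 247 cells of siFXR1-LNA replicates 1 and 2 held exactly 2 Nos2 UMIs. Just outside it, 491 and 563 macrophages held 1. The median Nos2+ cell held 5 Nos2 UMIs in each library and the highest held 37 and 54. In siCont-LNA replicates 1 and 2, 5 and 3 macrophages had a single Nos2 UMI and none had more.

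**Figure D1:**
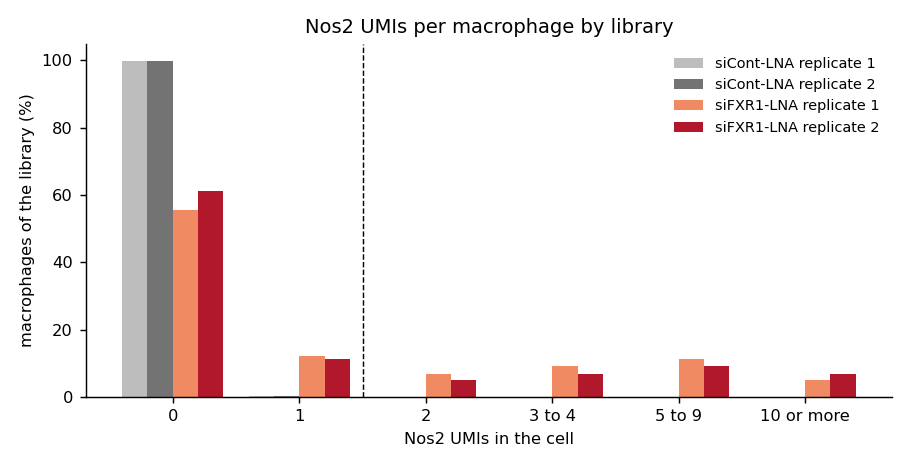
Share of the macrophages of each library (vertical axis, %) by the number of Nos2 UMIs in the cell (horizontal axis); the dashed line marks the threshold of 2 UMIs. Cells past the line come from the 2 siFXR1-LNA libraries, 1284 and 1363 of them, and the siCont-LNA bars end at 1 UMI.

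Free RNA in the droplets can place a Nos2 UMI in a cell that does not express the gene. In B cells of siFXR1-LNA replicates 1 and 2 (at least 2 Cd79a UMIs, median depths of 2559 and 2490.5 UMIs), 7.69% and 9.02% held at least 1 Nos2 UMI and 2.37% and 0% held at least 2. In T cells (median depths of 2531 and 2781.5 UMIs) 7.14% and 7.22% held at least 1 and 0% and 0.515% at least 2. Among macrophages, 44.4% and 38.8% held at least 1. In neutrophils (at least 2 UMIs of Csf3r, median depths of 2564 and 2806 UMIs) 23.03% and 23.76% held at least 1 and 6.67% and 9.94% at least 2. Macrophages thinned to 2000 UMIs held at least 2 in 14.4% and 10.8% of cells, and in 10.0% and 7.50% at 1500 UMIs. Nos2 UMIs were thus found outside the macrophages too. In replicate 1 the neutrophil share with at least 2 was below that of macrophages thinned to 1500 UMIs. In replicate 2 it lay between the macrophage shares at 1500 and 2000 UMIs. The neutrophils were not thinned and their median depths were above 2000 UMIs, so these depths are not alike.

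The members accounted for most of the Nos2 transcripts of their libraries. They held 7403 of 12004 Nos2 UMIs (61.7%) in siFXR1-LNA replicate 1 and 9755 of 13171 (74.1%) in replicate 2. Barcodes with 1000 to 4800 genes but fewer than 3 UMIs of the 5 macrophage genes held a further 14.3% and 8.66%, and barcodes under 1000 genes 17.7% and 4.97%. All barcodes of siCont-LNA replicates 1 and 2 together held 42 and 62 Nos2 UMIs.

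The macrophage identity of the cells was checked with markers that the rule did not use. Lyz2, the lysozyme of macrophages and neutrophils, had 7595 and 9187 CPM in Nos2+ cells of replicates 1 and 2 and 6975 and 12676 CPM in other macrophages. Mertk, a receptor for apoptotic cells, had 161 and 150.5 CPM against 173 and 166 CPM. Of the 5 markers that the rule left free, 3 were higher in Nos2+ cells in the test described below, and 0 were lower. With depth-matched cells 1 was higher, and with at least 6 UMIs of the macrophage genes 0 were. The full list, which includes the macrophage genes of the rule, was lower in both libraries. It summed to 11603 and 13657 CPM in Nos2+ cells against 12124.5 and 20038.5 CPM in other macrophages. With depth-matched cells it summed to 11088 and 13161 CPM against 13663 and 22279 CPM. The label calls these cells inflammatory. Among inflammatory cytokines, Il1b had 73.4 and 129.96 CPM, Il1a 41.1 and 56.5 CPM, Tnf 11.7 and 13.1 CPM and Il6 0 and 0.954 CPM, and the cells are called Nos2+ macrophages here, after the rule.

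The markers named for the cells differed between the classes in both libraries. Nos2 itself, by the rule, had 732 and 664 CPM in Nos2+ cells, 36.05 and 24.9 CPM in other macrophages, and 0.2002 and 0.179 CPM in siCont-LNA macrophages. The level in other macrophages was below that of B cells of the same siFXR1-LNA libraries, at 51.4 and 30.2 CPM. Saa3, an acute-phase serum amyloid made by macrophages, had 78887 and 77242 CPM, 7.89% and 7.72% of all UMIs of Nos2+ cells, against 32548 and 25279.5 CPM in other macrophages of the same libraries and 971 and 1343 CPM in the siCont-LNA macrophages. Ptges, the inducible prostaglandin E synthase, had 417 and 432 CPM against 157 and 119 CPM, and 5.52 and 9.94 CPM in siCont-LNA. For Saa3 and Ptges, Nos2+ cells lay above other macrophages of the same libraries and these above siCont-LNA macrophages. Nos2 had the same order, which the rule sets within a library. Saa3 and Ptges were given as markers with results of these data known, so the order is a description and adds no support. The part of free RNA in the levels of other macrophages was not tested.

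Arg1, the arginase that uses the same substrate as Nos2, was not lower in these cells. It had 5458 and 5923 CPM in Nos2+ cells, 3847 and 2817 CPM in other macrophages and 1025 and 1934 CPM in siCont-LNA macrophages. At 4000 UMIs per cell, 96.1% and 94.5% of Nos2+ cells held an Arg1 UMI, against 89.6% and 84.5% of other macrophages. Ms4a4a, a tetraspan membrane protein of macrophages, had 969.95 and 1145 CPM against 469 and 479 CPM, and Mmp14, a membrane-bound metalloproteinase, had 378 and 378 CPM against 199 and 175 CPM.

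**Figure D2:**
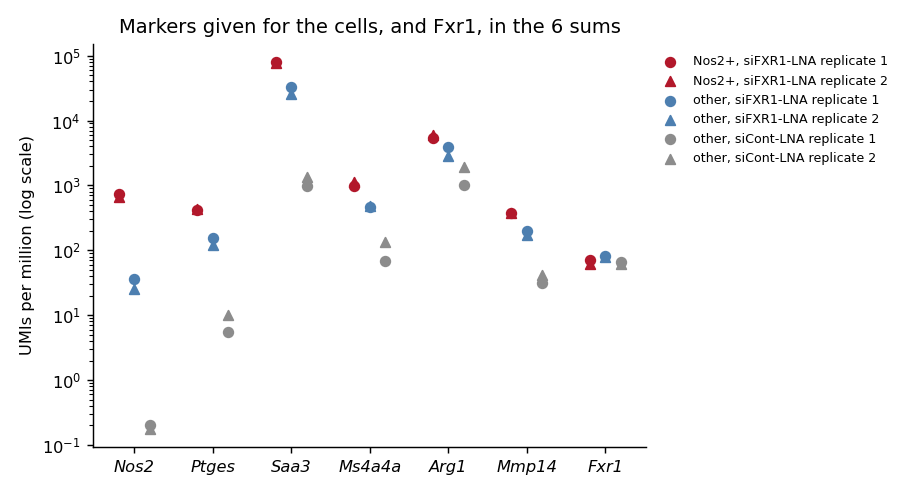
CPM (log axis) of Nos2, the 5 other markers given for the cells and Fxr1 in the summed Nos2+ and other macrophages of each library; 1 point per library and class, circles for replicate 1 and triangles for replicate 2. For each of the 6 markers, the Nos2+ points (red) lie above the other macrophages of the same library (blue), and these above the siCont-LNA points (grey). Within a library the rule sets this order for Nos2, and the 5 others were chosen with results of these data known. Fxr1 lies between 60.7 and 81.7 in all 6 sums.

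To see what else set Nos2+ macrophages apart, UMIs were summed per library and class and compared between Nos2+ and other macrophages of the same library, with the library as a block (edgeR's quasi-likelihood test, TMM scaling, Benjamini-Hochberg adjustment, threshold 0.05). Of 13432 genes tested, 2293 were higher in Nos2+ cells, 17.1% of all tested, and 2578 were lower, 19.2%. These shares of all genes are the background for each count of list members or markers. The fit rests on 2 libraries with 1 residual degree of freedom and takes most of its estimate of spread from all genes together. The library block takes out the difference in level between the pools. The p-values thus rest mostly on how far differences between the classes varied between these 2 pools over all genes together. A gene's own variation between the pools enters them only in part. TMM scaling set the median log2 fold change of all genes to -0.04. With total UMIs in its place that median was -0.34, a shift of 0.30 (log2), and 796 genes were higher and 5344 lower, so differences below are relative to the TMM scale. With other macrophages matched to Nos2+ cells on total UMIs (1065 and 1132 cells of each class in replicates 1 and 2), 1547 were higher and 1634 lower.

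Most markers of neutrophils, tumor or mesothelial cells and erythroid cells were lower in Nos2+ cells. The neutrophil list summed to 1025 and 2194 CPM in Nos2+ cells and 2412 and 5383 CPM in other macrophages, and 4 of 6 members fell, against 1 of 6 with depth-matched cells. Tumor or mesothelial markers summed to 236 and 139 CPM against 471 and 345 CPM with 6 of 6 lower (2 of 6 with depth-matched cells), and erythroid markers to 21636 and 10812 CPM against 37317 and 20651 CPM with 5 of 5 lower. These lists moved with the contrast in both libraries.

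Among lymphoid and dendritic markers the levels were low in both classes. Dendritic markers summed to 9.20 and 4.09 CPM against 20.04 and 54.37 CPM with 5 of 5 tested members lower. B cell markers summed to 5.74 and 6.06 CPM against 7.12 and 12.4 CPM, T cell markers to 2.77 and 3.75 CPM against 5.65 and 14.6 CPM, and NK cell markers to 0.396 and 0.409 CPM against 1.10 and 3.01 CPM. Cd79a and Cd3e, which the rule excludes, and the NK cell genes Ncr1 and Gzma were at 0 in Nos2+ cells. Mast cell markers (15.04 and 24.93 against 21.0 and 52.6 CPM) and fibroblast markers (182 and 63.7 against 353 and 159 CPM) were at low to middling levels. Of their tested members, 2 of 4 and 1 of 5 were lower, beside 19.2% of all genes. The part of these transcripts in the differences below was not tested.

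Platelet markers summed to 3136 and 2920 CPM in Nos2+ cells against 1423 and 1401 CPM. This sum was nearly all Pf4, a chemokine of platelets that macrophages also express, at 3032 and 2825 CPM against 1381 and 1372 CPM (log2 fold change 1.39 ± 0.14 SE, adjusted p = 2.00e-06 in edgeR). Ppbp, a platelet gene that is also on the neutrophil chemokine list, had 100.5 and 91.5 CPM against 36.3 and 25.5 CPM. Its log2 fold change was 1.96 ± 0.11 (SE, adjusted p = 7.39e-09 in edgeR). Tubb1 and Gp9, further platelet genes, were under 1 CPM in Nos2+ cells.

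The largest rises came from genes of low and of high level. Gipr, the receptor of the incretin GIP, had 22.7 and 20.8 CPM in Nos2+ cells of replicates 1 and 2 against 4.63 and 3.32 CPM in other macrophages, a log2 fold change of 2.78 ± 0.16 (SE; edgeR adjusted p = 7.39e-09). Hilpda, which coats lipid droplets and blocks lipolysis in low oxygen, had 462 and 509 CPM against 149 and 101 CPM, a log2 fold change of 2.29 ± 0.15 (adjusted p = 3.73e-08). For both genes both Nos2+ sums lay above both sums of other macrophages. They were picked for large differences of 1 direction in both libraries, so this separation is a description and adds no support. The share of all tested genes with such a separation was not counted. A further 7 of the 10 were Fosl1 (2.37), an AP-1 transcription factor, Fam13a (2.27), the metallothionein Mt2 (2.19), the small GTPase Rab33a (2.14), Gm15056 (2.03), Adm (2.02), the vasodilator peptide adrenomedullin, and Tmem119 (2.00), a membrane protein best known from microglia.

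The largest falls were larger in size. Retnla, the secreted resistin-like protein of IL-4 driven macrophages, had 9.200 and 2.32 CPM in Nos2+ cells of replicates 1 and 2 against 211 and 75.9 CPM in other macrophages, a log2 fold change of -4.41 ± 0.13 (SE; adjusted p = 8.22e-12). Alox15, the 12/15-lipoxygenase of resident peritoneal macrophages, had 9.79 and 3.07 CPM against 141 and 66.3 CPM, a log2 fold change of -3.79 ± 0.13 (adjusted p = 4.13e-11). Prg4, the lubricin of resident macrophages, had 16.7 and 5.59 CPM against 183 and 40.7 CPM, with a log2 fold change of -2.93 ± 0.14 (adjusted p = 8.24e-10). Both Nos2+ sums lay below both other sums for each of these genes, which were picked in the same way, so this too is a description only. Without the library block Retnla (adjusted p = 0.0532) and Prg4 (0.127) did not pass. The other 7 were the lectin Mgl2 (-3.90), the secreted scavenger protein Cd5l (-3.32), the ribonuclease Ear2 (-3.22), the citrullinating enzyme Padi4 (-3.09), the hyaluronan receptor Lyve1 (-3.02), the apolipoprotein Apoc4 (-2.76) and the carbonyl reductase Cbr2 (-2.74), of which Mgl2, Padi4 and Cbr2 did not pass without the block (adjusted p = 0.0685, 0.0555 and 0.0910). Reads of near-identical relatives can be split or lost in counting, which touches Ear2, the metallothioneins, Saa1 and the H2 genes. All 20 genes passed the threshold with depth-matched cells in the same direction.

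**Figure D3:**
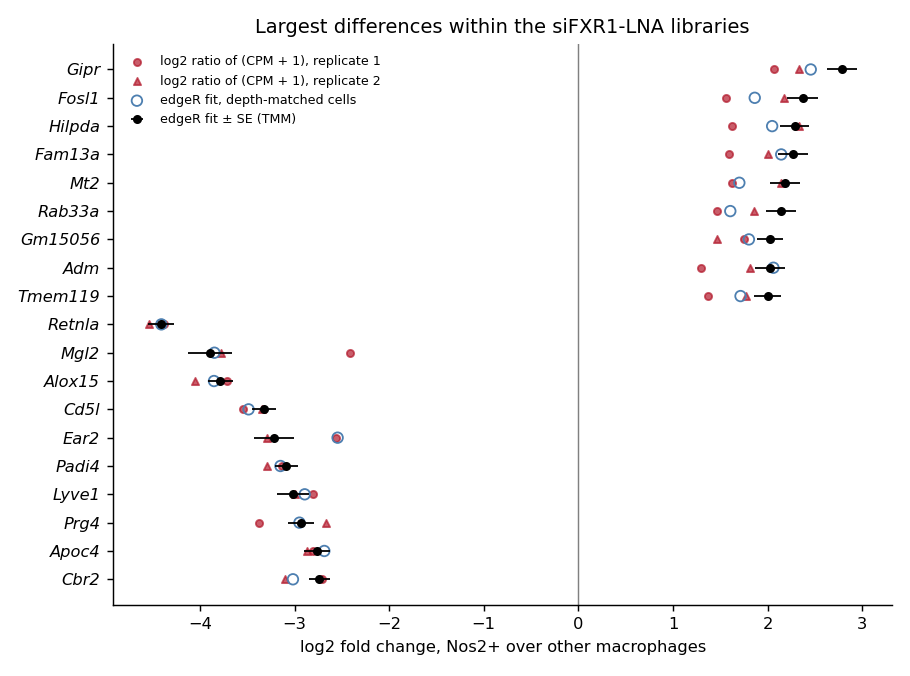
Log2 fold change of Nos2+ over other macrophages (horizontal axis) for 9 of the 10 largest rises and the 10 largest falls. Black points are edgeR estimates on the TMM scale, with SE worked back from the test statistic. Red symbols are the log2 ratio of (CPM + 1) in each siFXR1-LNA library and open circles the fit with depth-matched cells. For every gene the 4 values lie on the same side of 0.

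Genes of arginine uptake and resynthesis were among those that rose. Of 16 tested members of the arginine and nitric oxide list, which leaves out Nos2 and Arg1, 7 rose and 2 fell, beside 17.1% and 19.2% of all genes. The median log2 fold change was 0.21 beside -0.04 for all genes, and it turned to -0.10 with total UMIs in place of TMM. With depth-matched cells 4 rose and 2 fell, and with DESeq2 3 and 1. Slc7a2, an importer of cationic amino acids, had 309 and 295 CPM against 198 and 91.9 CPM, a log2 fold change of 1.46 ± 0.18 (adjusted p = 1.20e-05; DESeq2 adjusted p = 0.0556). Ass1, which remakes arginine from citrulline, had 62.7 and 80.9 CPM against 33.99 and 39.1 CPM, a log2 fold change of 1.28 (adjusted p = 1.47e-07). Slc3a2, the heavy chain of amino acid transporters, rose by 0.54 on the log2 scale. Sat1, an enzyme of polyamine breakdown, had 276 and 314 CPM against 318 and 374 CPM and did not pass (adjusted p = 0.633).

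Genes of glycolysis and of the response to low oxygen rose together. Of 24 members, all tested, 22 rose and 0 fell, with a median of 0.93, beside 17.1% of all genes that rose. Gapdh, the glyceraldehyde phosphate dehydrogenase, had 6169 and 8041 CPM in Nos2+ cells against 4609 and 5033 CPM in other macrophages (log2 fold change 0.85 ± 0.17, adjusted p = 0.00109). Slc2a1, the glucose transporter GLUT1, had 267 and 301 CPM against 116 and 101 CPM, a log2 fold change of 1.70 ± 0.12 (adjusted p = 5.10e-08). Its level in siCont-LNA macrophages was 17.7 and 25.3 CPM. Pfkfb3, which makes the activator of phosphofructokinase, rose by 1.63 and Bnip3, a mitochondrial protein of hypoxia, by 1.46. The 2 members that did not pass were Pfkl (0.17, adjusted p = 0.204) and the growth factor Vegfa (0.28, adjusted p = 0.0684). With depth-matched cells 23 of 24 rose, Vegfa among them.

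Promoters of this list were searched for ACGTG on either strand, the core letters of sites known for hypoxia-inducible factors. Of the 22 members with an entry among the RefSeq promoters of GRCm38.p6, 11 hold it within 250 bases before the start (50%), beside 16.6% of 27025 promoters of the same length. The match is a description of the letters and not of a bound site. The list was drawn up by function, so this share describes the list and is no result about Nos2+ cells. Shown are the 250 bases before the start, 5′ to 3′ on the strand of the gene, for the 3 of these 11 genes with the largest rise, and for Saa3, the most abundant gene of the cells; capitals mark ACGTG on either strand in the first 3 and the interferon response element (GAAA, any 2 bases, GAAA) in Saa3, which 3.04% of all promoters hold. Where both strands match at once, the capitals cover both.
Slc2a1, chr4:119108495-119108744, plus strand: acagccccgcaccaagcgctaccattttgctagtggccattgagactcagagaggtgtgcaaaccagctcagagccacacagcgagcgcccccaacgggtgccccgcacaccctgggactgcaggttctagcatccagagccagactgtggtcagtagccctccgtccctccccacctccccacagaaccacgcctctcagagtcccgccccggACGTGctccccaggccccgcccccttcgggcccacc
Pfkfb3, chr2:11553930-11554179, minus strand: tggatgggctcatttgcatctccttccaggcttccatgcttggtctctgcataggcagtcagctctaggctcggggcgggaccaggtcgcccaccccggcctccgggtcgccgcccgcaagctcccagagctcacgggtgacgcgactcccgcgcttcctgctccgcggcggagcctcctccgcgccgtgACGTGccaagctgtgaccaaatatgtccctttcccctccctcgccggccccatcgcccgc
Bnip3, chr7:138909507-138909756, minus strand: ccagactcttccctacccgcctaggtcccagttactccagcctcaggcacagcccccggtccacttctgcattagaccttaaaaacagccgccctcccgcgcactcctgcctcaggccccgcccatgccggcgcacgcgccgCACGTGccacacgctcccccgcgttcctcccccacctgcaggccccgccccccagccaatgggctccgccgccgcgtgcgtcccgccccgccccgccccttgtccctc
Saa3, chr7:46715677-46715926, minus strand: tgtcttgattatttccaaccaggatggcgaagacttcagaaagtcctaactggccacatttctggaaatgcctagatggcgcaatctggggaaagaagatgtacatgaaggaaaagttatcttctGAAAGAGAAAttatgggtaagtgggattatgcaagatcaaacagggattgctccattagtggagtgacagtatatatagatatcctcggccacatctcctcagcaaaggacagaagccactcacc
In Slc2a1 the core begins 36 bases before the start, in Pfkfb3 60 bases and in Bnip3 108 bases. Letters of the kappa-B type (GGG, any 5 bases, CC, on either strand), present in 45.4% of all promoters, were found in 13 of the 22 and are not marked. Of the 10 largest rises, 6 had an entry in the table, of which 3 held kappa-B letters and 0 the hypoxia core. The GAS element (TTC, any 3 bases, GAA) and the C/EBP letters (TTGCG, any base, AA), in 7.18% and 0.670% of all promoters, were in 0 of the 22 promoters of the glycolysis list.

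Acute-phase and iron-binding genes were also raised. Of 9 tested members, which leaves out Saa3, 8 rose and 1 fell, with a median of 1.15. Hp, haptoglobin, which binds free hemoglobin, had 2144 and 2773 CPM against 934 and 1059.7 CPM in other macrophages, a log2 fold change of 1.59 ± 0.14 (adjusted p = 5.63e-07). Lcn2, the siderophore-binding lipocalin, had 3767 and 4449 CPM against 2100.4 and 2753 CPM (log2 fold change 1.07 ± 0.15, adjusted p = 4.54e-05), and 5.204 and 15.9 CPM in siCont-LNA macrophages. Saa1 rose by 1.98 and Slpi, a protease inhibitor, by 1.15. The member that fell was Ltf, lactoferrin, a granule protein of neutrophils, at 0.989 and 0.409 CPM against 3.74 and 5.096 CPM.

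Metallothioneins and ferritin rose with them. Mt1, a metal-binding metallothionein, had 6967 and 8429 CPM against 2744 and 2334 CPM (log2 fold change 1.90 ± 0.18, adjusted p = 1.24e-06), and Fth1, the ferritin heavy chain, had 43832 and 43357 CPM against 23847 and 23569 CPM (1.18 ± 0.23, adjusted p = 7.58e-04). Of 11 tested members of the iron and metallothionein list, 6 rose and 2 fell, beside 17.1% and 19.2% of all genes. Their median was 0.59, against 4 higher and 2 lower with a median of 0.26 in depth-matched cells. The 2 that fell were Slc40a1, the iron exporter ferroportin (-1.30, adjusted p = 2.28e-05), and Tfrc, the transferrin receptor (-0.84, adjusted p = 1.09e-05). Among NRF2 targets, 9 of 15 rose and 3 fell, the latter near the 19.2% of all genes. Hmox1, heme oxygenase, had 3532 and 4346 CPM against 1724 and 2013 CPM (log2 fold change 1.37, adjusted p = 3.95e-06), and Slc7a11, the cystine importer, rose by 1.58. With depth-matched cells 4 of the 15 NRF2 targets rose and 1 fell.

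Chemokines that attract neutrophils rose, and those for monocytes and T cells mostly did not. All 5 tested members of the neutrophil chemokine list were called higher, with a median of 1.39, against 4 with total UMIs and 4 with DESeq2. Cxcl2 had 965 and 1267 CPM against 552 and 852 CPM (log2 fold change 0.99, adjusted p = 1.48e-05), and 8.65 and 12.7 CPM in siCont-LNA macrophages. Cxcl3 rose by 1.39, Cxcl5 by 2.62 and Ppbp by 1.96, while the rise of Cxcl1 (0.35, adjusted p = 0.0437) was not called by DESeq2 (adjusted p = 0.371). Cxcl1 had 19.7 and 18.1 CPM against 16.2 and 20.1 CPM, so its CPM was lower in replicate 2. With total UMIs it did not pass (0.04, adjusted p = 0.813). Of 15 monocyte and T cell chemokines, 2 rose and 7 fell, beside 17.1% and 19.2% of all genes. Their median was -0.36, which lay on the other side of that of all genes without siFXR1-LNA replicate 1. The 2 that rose were Ccl5 (0.78) and Cxcl16 (0.83). Ccl6, the most abundant of them, had 654 and 776 CPM against 1938 and 2250.4 CPM (log2 fold change -1.25, adjusted p = 2.68e-06), and Ccl2, the ligand of Ccr2, did not pass (0.18, adjusted p = 0.166) but was lower with depth-matched cells (-0.37, adjusted p = 0.0103).

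Of 17 cytokine genes tested, 4 rose and 4 fell, near the 17.1% and 19.2% of all genes, with a median of 0.05 (-0.25 with total UMIs). With depth-matched cells 3 rose and 1 fell, with a median of 0.21. Il1a had 41.1 and 56.5 CPM against 27.97 and 28.5 CPM (log2 fold change 1.09, adjusted p = 3.68e-06). Il1b had 73.4 and 129.96 CPM against 107 and 228 CPM (-0.38, adjusted p = 0.00681), and Il1r2, the decoy receptor, fell by 0.87. The falls of Il1b and Il1r2 were lost with depth-matched cells (log2 fold changes -0.06 and -0.02, adjusted p = 0.697 and 0.890), in which the neutrophil list summed to 1103 and 2512 CPM against 1579 and 3469 CPM. Neutrophils also express Il1b and Il1r2, and their part in these values was not tested. Tgfb1 did not pass (0.05, adjusted p = 0.734).

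Genes of MHC class II presentation were lower. Of 11 tested members 10 fell and 0 rose, with a median of -1.76, beside 19.2% of all genes that fell. H2-Aa had 283 and 288 CPM in Nos2+ cells of replicates 1 and 2 against 906 and 1850.03 CPM in other macrophages (log2 fold change -1.89 ± 0.17, adjusted p = 7.32e-07). Cd74, the invariant chain, had 747 and 889 CPM against 2331 and 4973 CPM (-1.76 ± 0.17, adjusted p = 1.38e-06), with 7982 and 9450.5 CPM in siCont-LNA. Ciita, the master activator of these genes, had 3.17 and 4.29 CPM against 10.3 and 29.9 CPM. The member that did not pass was the protease Ctss (0.29, adjusted p = 0.0948). At 4000 UMIs per cell, 29.4% and 29.3% of Nos2+ cells held an H2-Aa UMI, against 51.2% and 65.4% of other macrophages. Dendritic cells also express these genes, and their markers were lower in Nos2+ cells too. With at least 6 UMIs of the macrophage genes, dendritic markers still differed, at 9.08 and 4.23 CPM against 11.9 and 25.8 CPM, and 10 of 11 members of the list were lower with a median of -1.44. The part of dendritic cells in this difference was not tested.

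MHC class I genes moved the other way in smaller steps. Of 15 members 9 rose and 0 fell, with a median of 0.38. B2m, the light chain, had 1795 and 1757 CPM against 1378 and 1503 CPM (log2 fold change 0.60 ± 0.13, adjusted p = 0.00220), and H2-K1 rose by 0.54. With total UMIs in place of TMM, 3 of the 15 rose and 0 fell. Among interferon-stimulated genes more fell than rose. Of 18 type I interferon-stimulated genes 1 rose and 10 fell, with a median of -0.73; Ifi27l2a had 122 and 135 CPM against 204 and 318 CPM (-0.69, adjusted p = 1.64e-04), and 1553 and 1874 CPM in siCont-LNA. The member called higher was Rsad2, the antiviral viperin, at 23.7 and 25.4 CPM against 27.5 and 19.01 CPM (0.42, adjusted p = 0.0299), so its CPM was lower in replicate 1, and with total UMIs it did not pass (0.12, adjusted p = 0.559). With DESeq2, 0 rose and 4 fell.

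Among interferon-gamma responsive genes, 3 of 18 rose, near the 17.1% of all genes, and 7 fell (2 with DESeq2), with a median of -0.18 that lay on the other side of the all-gene median without siFXR1-LNA replicate 2. Those that fell were Ciita (-2.11) and the GTPases Iigp1 (-1.35), Gbp8, Irgm2, Igtp, Gbp3 and Irgm1. Cd274, the checkpoint ligand PD-L1, had 202 and 211 CPM in Nos2+ cells against 90.5 and 82.9 CPM in other macrophages, a log2 fold change of 1.56 ± 0.11 (adjusted p = 3.81e-08), and 30.7 and 31.2 CPM in siCont-LNA macrophages. At 4000 UMIs, 50.7% and 48.5% of Nos2+ cells held a Cd274 UMI, against 27.3% and 21.7% of other macrophages. The transcription factor Irf8 rose by 0.76 and the GTPase Gbp2 by 0.66, the latter not called with total UMIs (adjusted p = 0.0633). Of 16 costimulation and checkpoint ligands 5 rose and 5 fell, beside 17.1% and 19.2% of all genes, with a median of 0.13 (-0.17 with total UMIs). With depth-matched cells 4 rose and 1 fell, and with DESeq2 4 and 2. Sirpa (0.14), Vsir (0.12) and Lilrb4a (0.21) did not pass.

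**Figure D4:**
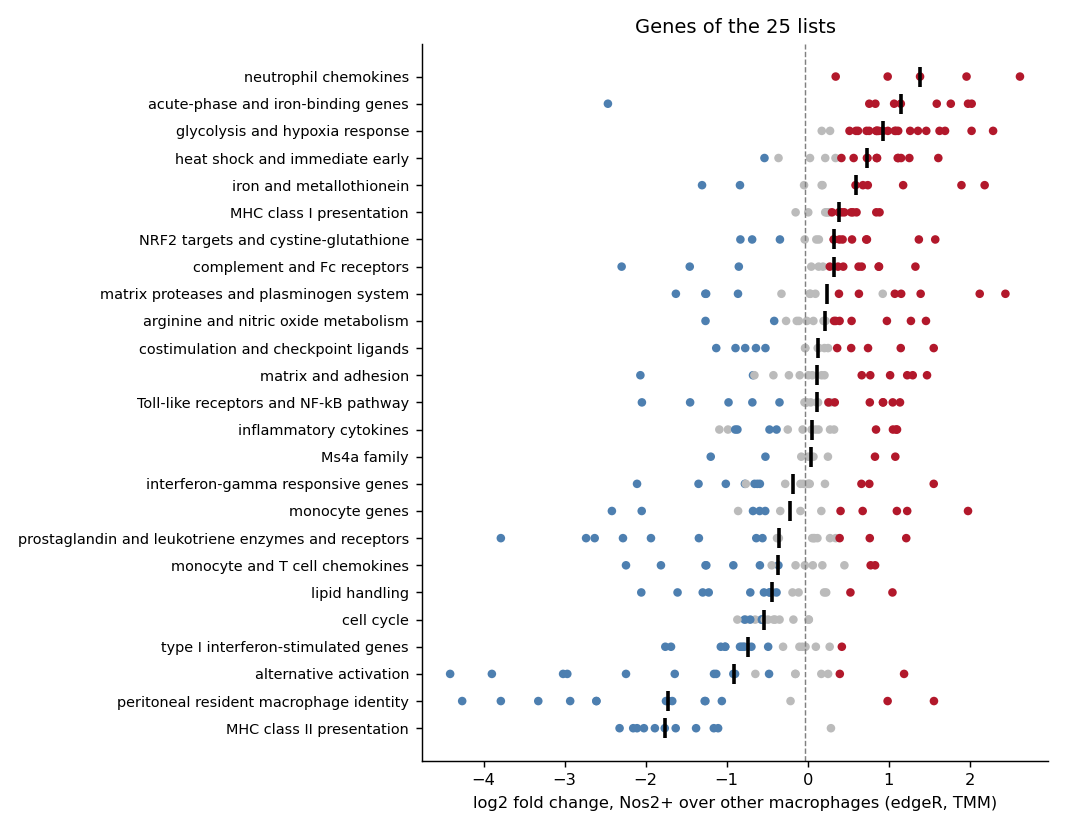
Log2 fold change of Nos2+ over other macrophages (horizontal axis, edgeR on the TMM scale) for each tested gene of the 25 gene lists (rows). Red points rose and blue points fell at an adjusted p under 0.05, grey points did not pass, black bars are list medians and the dashed line is the median of all genes (-0.04); medians run from -1.76 for MHC class II to 1.39 for neutrophil chemokines.

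Identity genes of resident peritoneal macrophages fell. Of 16 members 13 fell and 2 rose, beside 19.2% and 17.1% of all genes, with a median of -1.72. Gata6, the transcription factor that specifies these cells, had 21.5 and 11.5 CPM against 51.1 and 31.9 CPM (log2 fold change -1.06 ± 0.11, adjusted p = 2.52e-06). Vsig4, a complement receptor, had 0.297 and 1.16 CPM against 8.296 and 27.3 CPM. Fcna, ficolin A, had 30.4 and 40.1 CPM against 205 and 331 CPM (-2.61, adjusted p = 1.67e-10). The 2 that rose were F10, the clotting factor X (0.99, adjusted p = 9.16e-06), and the B cell chemokine Cxcl13 (1.56, adjusted p = 6.56e-06). The libraries differed in size for Cxcl13, with 231 against 61.9 CPM in replicate 1 and 134 against 85.3 CPM in replicate 2. At 4000 UMIs, 1.49% and 0.643% of Nos2+ cells held an Alox15 UMI, against 13.8% and 10.2% of other macrophages.

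Among genes of alternative activation more fell than rose. Of 18 members 11 fell and 2 rose, beside 19.2% and 17.1% of all genes, with a median of -0.91. With depth-matched cells 9 were lower and with DESeq2 8. Mrc1, the mannose receptor, had 63.2 and 64.6 CPM against 149 and 205 CPM (log2 fold change -1.16 ± 0.11, adjusted p = 7.94e-07). The exceptions were Cd163, the receptor for haptoglobin and hemoglobin, at 169 and 167 CPM against 97.6 and 84.2 CPM (1.19, adjusted p = 4.48e-07), and Il4ra, the IL-4 receptor chain (0.40, adjusted p = 0.00500), whose rise DESeq2 did not call (adjusted p = 0.0800). Chil3, the chitinase-like protein Ym1, had 939 and 1286 CPM against 1168 and 1241 CPM and did not pass (adjusted p = 0.367).

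Monocyte genes divided into rises and falls. Of 14 members 5 rose and 5 fell, beside 17.1% and 19.2% of all genes, with a median of -0.21. With depth-matched cells 3 rose and 3 fell. Without siFXR1-LNA replicate 1 the median lay on the other side of that of all genes. Ly6c2, the surface antigen of inflammatory monocytes, had 1329 and 1452 CPM against 497 and 379 CPM (log2 fold change 1.98 ± 0.15, adjusted p = 1.09e-07), and 71.2% and 73.2% of Nos2+ cells held a Ly6c2 UMI at 4000 UMIs, against 39.1% and 32.3% of other macrophages. F13a1, the clotting factor XIII subunit, rose by 1.10. Ccr2, the receptor that brings monocytes into tissue, had 18.1 and 22.5 CPM against 117 and 152 CPM (-2.42 ± 0.10, adjusted p = 2.01e-10), and the fractalkine receptor Cx3cr1 fell by 2.05. Nos2+ cells were thus higher in Ly6c2 and lower in Ccr2 than other macrophages of their libraries.

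Among genes of lipid mediators more fell than rose. Of 19 tested members of the prostaglandin and leukotriene list 3 rose, near the 17.1% of all genes. Another 8 fell, beside 19.2% of all genes, and the median was -0.36. With depth-matched cells 3 rose and 5 fell, with a median of -0.08, and without siFXR1-LNA replicate 2 the median lay on the other side of that of all genes. Ptgs1, the constitutive cyclooxygenase, had 10.7 and 10.9 CPM against 57.5 and 71.4 CPM (log2 fold change -2.28, adjusted p = 1.57e-09). Ptgs2, the inducible cyclooxygenase that feeds Ptges, had 5.74 and 6.06 CPM against 5.07 and 3.72 CPM (0.77, adjusted p = 0.0130; DESeq2 adjusted p = 0.230). Ltc4s, the leukotriene C4 synthase, fell by 2.63 and Alox5, the 5-lipoxygenase, by 1.93. Pla2g7, which breaks down platelet-activating factor, had 1045 and 1235 CPM against 573 and 633 CPM (1.22, adjusted p = 2.18e-06).

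In the lipid-handling list 2 of 16 rose and 9 fell, beside 17.1% and 19.2% of all genes, with a median of -0.44. Apoe, the apolipoprotein of cholesterol export, had 1785 and 2429.6 CPM against 5323 and 11431 CPM (log2 fold change -1.61 ± 0.18, adjusted p = 4.58e-06). The cholesterol exporter Abca1 rose by 1.05 and the galectin Lgals3 by 0.53, the latter not called with depth-matched cells (adjusted p = 0.0614). Of 14 complement and Fc receptor genes 8 rose and 3 fell, beside 17.1% and 19.2% of all genes, with a median of 0.32. With depth-matched cells 5 rose and 2 fell (median 0.12), and with total UMIs 5 and 4 (median 0.02). Cfb, factor B of the alternative pathway, rose by 1.33 and the Fc receptor Fcgr2b by 0.88, while C4b fell by 2.30.

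Genes that act on the matrix were divided. Of 16 tested matrix proteases and plasminogen genes, which leaves out Mmp14, 7 rose and 4 fell, the latter near the 19.2% of all genes. The share of all genes that rose was 17.1%. The list median was 0.24 (-0.06 with total UMIs). Mmp9, a gelatinase, had 342 and 333 CPM against 172 and 202 CPM (log2 fold change 1.15, adjusted p = 8.41e-07), and 15.9 and 15.7 CPM in siCont-LNA. Adam8 rose by 1.40 and Timp2, an inhibitor of metalloproteinases, fell by 1.25. Of 16 matrix and adhesion genes 6 rose and 2 fell, beside 17.1% and 19.2% of all genes, with a median of 0.12 (-0.19 with total UMIs). Thrombospondin Thbs1 had 1234 and 1390.2 CPM against 851 and 507 CPM (1.30, adjusted p = 4.46e-05; DESeq2 adjusted p = 0.0765), and fibronectin Fn1 fell by 0.67.

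Among Toll-like receptor and NF-kB genes 7 of 21 rose and 5 fell, beside 17.1% and 19.2% of all genes, with a median of 0.11 (-0.19 with total UMIs). Nfkbia, the inhibitor that NF-kB induces, had 786 and 1065 CPM against 475 and 551 CPM (log2 fold change 1.14, adjusted p = 4.46e-06). Cd14, the endotoxin co-receptor, rose by 1.05, Acod1, which makes itaconate, by 0.93 and Tnfaip3 by 0.93, whereas Tlr4 fell by 0.68. In the heat shock and immediate early list 11 of 16 rose and 1 fell, with a median of 0.74. Ier3 rose by 1.26, Jun by 1.15 and Dusp1 by 1.12, and the chaperone Hspb1 fell by 0.53, a call lost with depth-matched cells (adjusted p = 0.323). In the Ms4a family, 2 of 8 tested members rose, Ms4a8a (1.08, DESeq2 adjusted p = 0.111) and Ms4a6d (0.83), and 2 fell, Ms4a4b and Ms4a4c. These counts stand beside 17.1% and 19.2% of all genes. The median of the 8 was 0.04 and turned to -0.26 with total UMIs and -0.22 with depth-matched cells. Of 16 cell cycle genes 0 rose and 4 fell, the latter near the 19.2% of all genes, with a median of -0.54. The proliferation gene Mki67 had 19.1 and 18.2 CPM against 21.2 and 24.1 CPM and did not pass (adjusted p = 0.937), but was lower with depth-matched cells (-0.37, adjusted p = 0.0401). With depth-matched cells 11 of the 16 fell and DESeq2 called 0.

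The Nos2 threshold was set on counts, so levels were also described across Nos2 UMIs in siFXR1-LNA macrophages thinned to 4000 UMIs. Nos2 ordered these cells, and the values carry no test. Saa3 went from 34523 CPM with 0 Nos2 UMIs to 65131 CPM with 1 and 72263 CPM with 5 or more in replicate 1, and from 25174 to 59323 and 63291 CPM in replicate 2. Ly6c2 went from 525 to 1051 and 1296 CPM and from 406 to 1144 and 1096 CPM. For both genes, more of the difference lay between 0 and 1 Nos2 UMI than between 1 and 5 or more.

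Slc2a1 and Hilpda kept higher levels at each further step. Slc2a1 went from 109 CPM with 0 Nos2 UMIs to 189.7 with 1 and 412 with 5 or more in replicate 1, and from 97.03 to 218 and 435 CPM in replicate 2. Hilpda went from 159 to 335 and 556 CPM and from 109 to 348 and 566 CPM. H2-Aa and Alox15 ran the other way. H2-Aa went from 1054 to 376 and 204 CPM in replicate 1 and from 2197 to 437 and 298 CPM in replicate 2, and Alox15 was at 0 and 1.17 CPM with 5 or more. Fxr1 showed no such order, with 73.3 and 74.3 CPM at 0 Nos2 UMIs and 74.9 and 77.5 CPM at 5 or more.

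**Figure D5:**
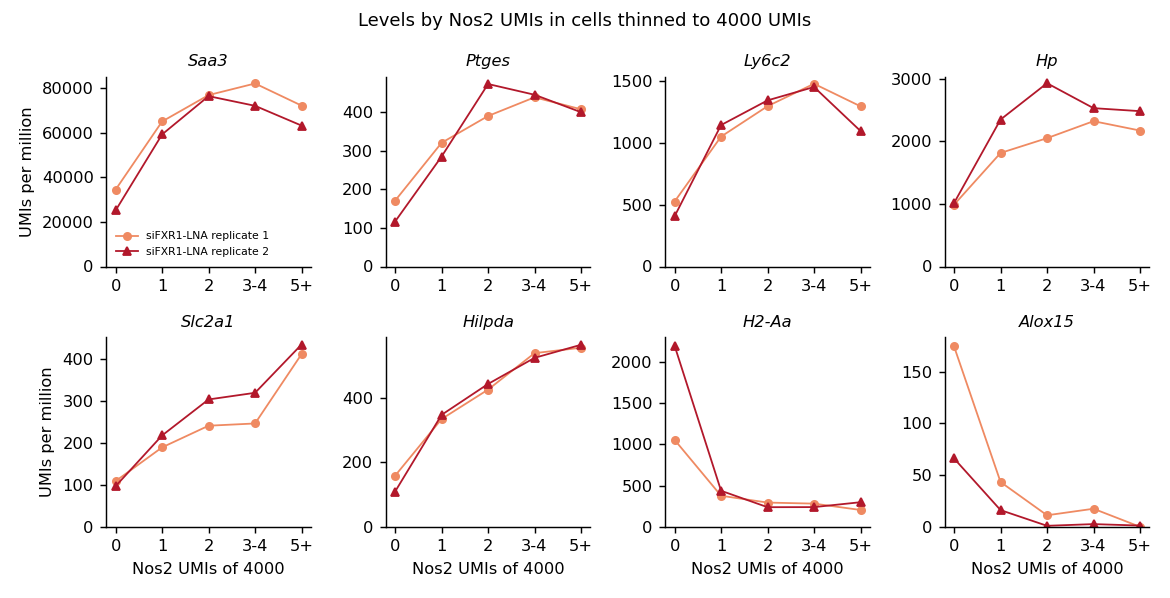
CPM (vertical axes, each from 0) of 8 genes by the Nos2 UMIs of the cell (horizontal axis) in macrophages of siFXR1-LNA replicates 1 and 2 thinned to 4000 UMIs; each point sums the 213 to 2190 cells of a step in 1 library. Slc2a1 and Hilpda are higher at each step in both libraries, Saa3, Ptges, Ly6c2 and Hp level off after 2 or 3 to 4 Nos2 UMIs, and H2-Aa and Alox15 drop between 0 and 1.

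Fxr1 did not differ detectably between the classes (log2 fold change 0.04 ± 0.09, edgeR adjusted p = 0.792; with total UMIs in place of TMM -0.27, adjusted p = 0.0418).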

How the data were processed

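Ascites cells were captured with 10x Genomics 3' chemistry; the label and the design text name different kit versions. The authors deposited raw UMI counts for each barcode, from Cell Ranger 7.0.0 on mm10 per the labels, while the methods name another version. Macrophages were chosen by the UMI rule given above. Doublets were left in, except in an alternative without the 5% of cells highest in Scrublet score. Members and gene lists were chosen with earlier results of these data known.

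UMIs were summed per library and class and tested with edgeR 4.0.16 (quasi-likelihood, TMM, library block; limma 3.58.1, R 4.3.3), and with DESeq2 1.42.0 as an alternative. The library block pairs both classes of the same pool. The 13 genes of the rule and of the given markers were left out of the test. Each SE is the size of the log2 fold change over the square root of the test's F statistic. It thus restates the test and is not a separate measure of spread. Scripts were tested on simulated data. Python 3.11.15, scanpy 1.11.5, scipy 1.17.1 and numpy 2.4.6 did the rest. Intervals cover counting error only.

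Named are the 10 largest rises and 10 largest falls among genes past the threshold that moved the same way in both libraries, at 20 CPM or more on average in the higher class, the given markers, Fxr1, and from each list up to 6 members of highest mean CPM in Nos2+ macrophages; a few genes that the rule takes are not reported here. Outside that rule, and chosen after their values were seen, are Slc2a1, Pfkfb3, Bnip3, Pfkl, Ccr2, Cx3cr1, Ptgs1, Ptgs2, Alox5, Ltc4s, Ciita, C4b, Iigp1, Gbp3, Gbp8, Igtp, Irgm1, Irgm2, Pf4, Tubb1, Gp9, Ltf, Tfrc, Slc40a1, Vsig4, Tlr4, Hspb1, Tnf, Il6, Ms4a4b, Ms4a4c, Lyz2, Mertk, Ncr1 and Gzma.

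The planned comparison of siFXR1-LNA with siCont-LNA within Nos2+ macrophages, and that of the Nos2+ contrast between the groups, could not be run, since both siCont-LNA libraries held 0 such cells. Values of siCont-LNA macrophages are levels with no test, and the planned test of the share of Nos2+ cells is left out, since Nos2 chose the cells and 2 against 2 libraries could not have passed the threshold.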

Additional observations from a re-analysis of the deposited data

Results flagged for a closer look

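Nos2 was also counted outside the macrophages, in barcodes that the comparisons did not use, at levels above those in the siCont-LNA libraries. Neutrophils (at least 2 UMIs of Csf3r, the receptor for granulocyte colony-stimulating factor) of siFXR1-LNA replicates 1 and 2 had 111 and 152 CPM of Nos2, against 0 and 15.3 CPM in siCont-LNA replicates 1 and 2. These siCont-LNA values rest on 6 and 77 cells with 0 and 6 Nos2 UMIs, those of siFXR1-LNA on 165 and 181 cells. B cells of siFXR1-LNA replicates 1 and 2 had 51.4 and 30.2 CPM of Nos2. All barcodes with 1000 to 4800 genes outside the macrophages had 75.0 and 92.2 CPM, against 0.265 and 0.658 CPM.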

How the results depend on the processing

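The number of genes that differed between Nos2+ and other macrophages depended on the fit. Against 2293 higher and 2578 lower, DESeq2 gave 1089 and 966, and total UMIs in place of TMM, added after seeing the data, gave 796 and 5344, so that the share of calls that were higher went from 47.1% to 12.96%. Depth-matched cells gave 1547 higher and 1634 lower, and 2938 calls were shared in direction with the first fit. The fit with no replicate block gave 354 and 132, and 6 of the 20 largest genes did not pass in it. The causes were not tested. The other alternatives (no filter on low counts, 1 or 3 Nos2 UMIs, Scrublet, comparison cells at 0 Nos2 UMIs, a 10% mitochondrial limit, 6 macrophage UMIs) gave 1936 to 2434 higher and 2062 to 2846 lower. Of 220 values of the 20 largest genes under these alternatives, 214 kept direction and call and 0 reversed.

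With total UMIs the medians of the arginine (-0.10), cytokine (-0.25), matrix protease (-0.062), matrix and adhesion (-0.19), Toll-like receptor (-0.19), costimulation (-0.17) and Ms4a (-0.26) lists turned negative, and with depth-matched cells that of the Ms4a list (-0.22). Medians of 15 of 25 lists lay above that of all genes, and 14 to 17 did under the alternatives. These were not the same lists throughout: without siFXR1-LNA replicate 1, 21 of 25 kept their side (cytokines, monocyte and T cell chemokines, monocyte genes and the Ms4a family did not), and without replicate 2, 23 did (prostaglandin and interferon-gamma genes did not).

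The mean siFXR1-LNA share of Nos2+ macrophages was 27.5% to 32.1% with either library left out and 8.76% (1500 UMIs per cell) to 41.6% (1 Nos2 UMI) under the other settings. Leaving out a library leaves 1 for the gene contrast, which then gives log2 ratios with no test. The alternatives for the comparison between groups within Nos2+ macrophages, its replicate block included, were not run, for lack of siCont-LNA cells.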
